A study of Oryza sativa with 12 samples.

Results

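The probe sets described here gave a higher signal in shoots of the rice genotype K83 than in shoots of the genotype Jijing88, with and without alkali salts. They were selected on their measured values. The mean of K83 minus the mean of Jijing88 had to be at least 2 on the log2 scale, which is a 4-fold difference, in control medium and again under alkali, and every K83 array had to lie above every Jijing88 array. Of 57258 probe sets, 84 met these conditions, and 1 of them was set aside by name because its gene, LOC4338051, carries the zinc transporter names ZIP3 and ZIP7. The other 83 probe sets, 0.145% of the array, are the members. Since both genotype differences chose them, those differences are given as a description, with no test.

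The study measured 12 arrays in 4 groups of 3. On an Affymetrix rice array, it compared seedlings of Jijing88 and K83 at an age of 7 days, kept in hydroponics and given new medium either without or with 50 mM of alkali salts, and harvested as shoots 24 h later. All 4 groups shared greenhouse days of 16 h at 27 °C and nights of 8 h at 23 °C. Each array held the pooled RNA of 10 shoots, so a value is a mean over plants and the spread between plants within a pool is not seen. The labels name neither salt nor pH, and do not say how K83 and Jijing88 are related; the arrays are labelled as biological replicates.

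Genotypes of a crop differ in gene expression before any stress is applied, because of differences in regulatory sequence, in gene copies that are present or absent, and in the sequence of the transcripts themselves. A probe set of this kind of array is a group of short oligonucleotides made to match a reference sequence, and its signal falls when there is less transcript or when the transcript differs from that sequence under the oligonucleotides. In the summarised values these cannot be told apart, and neither can fewer cells that use a gene and less of its RNA per cell. Other probe sets of the same gene are therefore given beside the members wherever the array holds them.

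Array medians lay between 5.12 and 5.18, and the lowest correlation between arrays of a group was 0.993. The tissue label was checked with marker genes: the 6 green shoot markers found on the array had medians of 12.33 to 13.05 in the 12 arrays, and the 8 seed markers 3.87 to 4.21, with 5 of the 8 under 5 on every array. The 3 root markers had medians of 5.73 to 6.67 on the K83 arrays and 6.93 to 9.40 on the Jijing88 arrays, and the 3 meristem markers 5.14 to 5.68 on all arrays, with 1 of the 3 under 5 throughout. The root list moved with genotype through YSL15, an iron chelate transporter gene, which averaged 8.39 in Jijing88 and 6.13 in K83; its part in the members' differences was not tested. The lists named 14 green shoot, 8 root, 13 seed and 8 meristem markers, of which only those counted above were found. Some markers of other tissues were bright in both genotypes. LSI1 of the root list averaged 9.40 in Jijing88 and 9.03 in K83. GLUA2 of the seed list averaged 8.97 and 8.85, and FON1 of the meristem list 9.05 and 9.12. The medians hide these values, which limits the tissue check. No marker was a member.

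Arrays of Jijing88 differed among themselves more than usual at the members. In the median member, the SD over the 3 Jijing88 control arrays was 0.35, against 0.115 in the median probe set of the whole array. The same medians were 0.19 against 0.128 for Jijing88 under alkali, 0.14 against 0.115 for K83 controls and 0.098 against 0.0976 for K83 under alkali. Among the control arrays of Jijing88, replicate 2 was the highest for 48 of the 83 members, replicate 3 for 23 and replicate 1 for 12, whereas over all probe sets these arrays were the highest in 30.2%, 36.5% and 33.2% of cases. Jijing88 control replicates 1 and 3 therefore stood below replicate 2 at many members, and the results that rest on them are given with and without them further on.

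Members covered a wide range of signal. The median over members was 4.54, 5.23 and 4.78 on the 3 Jijing88 control arrays and 5.14, 5.26 and 5.29 on the Jijing88 alkali arrays. On the 6 K83 arrays it lay between 8.50 and 8.66. No member had a K83 array under 5, and 44 had all of them at 8 or above. The smaller of a member's differences ranged from 2.01 to 6.39 with a median of 2.86. It was at least 3 in 33 members, at least 4 in 11 and at least 5 in 6. The lowest K83 array exceeded the highest Jijing88 array by 0.36 to 6.0, with a median gap of 2.32.

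**Figure D1:**
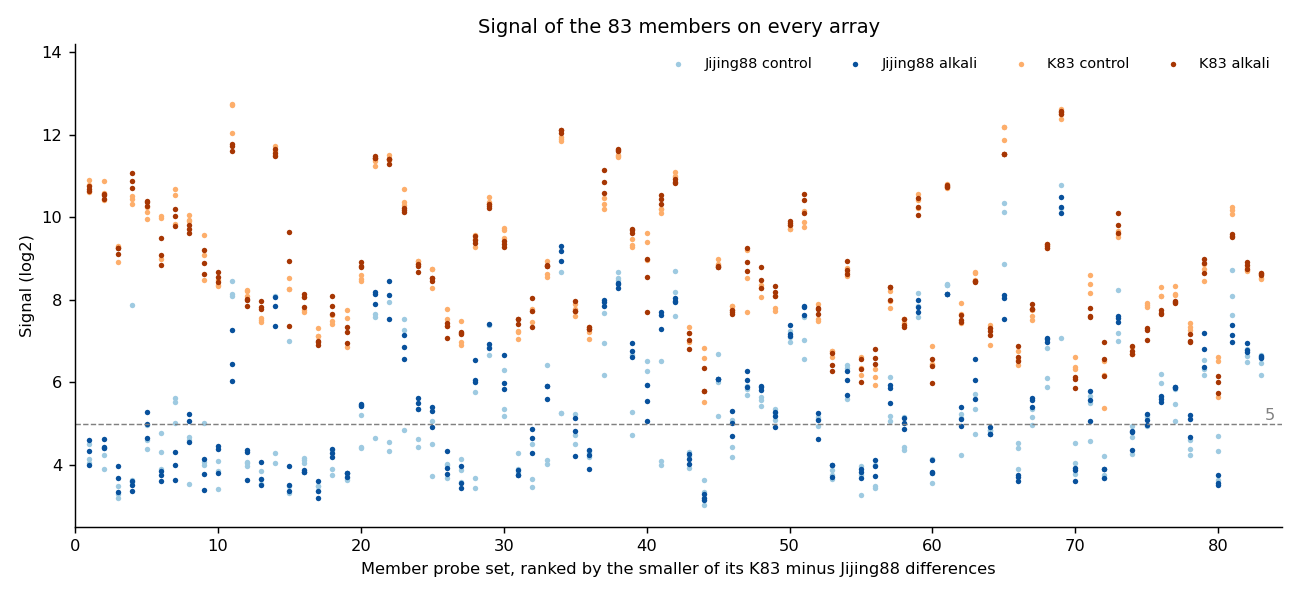
Signal (log2, vertical axis) of the 83 members on all 12 arrays, with members ordered from the largest to the smallest difference along the horizontal axis; each point is 1 array, coloured by genotype and medium. The K83 points of each member lie above its Jijing88 points by the rule of selection, and the Jijing88 points of several members, such as the one ranked 4, are split.

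In 28 members, or 33.7%, all 6 Jijing88 arrays were under 5, the level taken here as near background. Over the whole array 44.2% of probe sets were under 5 in all Jijing88 arrays. A further 28 members had some Jijing88 arrays under 5, and 27 had none. Mean K83 signal of the 28 near-background members ran from 6.11 to 10.73 with a median of 7.24. Single K83 arrays of some of them came close to 5, such as 5.39 for Os.29923.1.S1_at and 5.51 for Os.19597.1.S1_at. With all values under 5 raised to 5, the rule takes 71 probe sets, all of them among the 83. Their smaller difference had a median of 3.13, against 2.55 in the 27 members that were never under 5. For members at background in Jijing88, the size of the difference is limited by the background and not by a measured Jijing88 level.

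Ranked by the smaller of both differences, LOC4350802 came first, a protein-coding gene known to the annotation by its locus number only, which 2 members measured. Its probe set Os.39305.1.A1_x_at read 4.05, 4.5 and 4.15 in Jijing88 control, 4.0, 4.33 and 4.61 in Jijing88 under alkali, 10.91, 10.61 and 10.77 in K83 control, and 10.77, 10.65 and 10.69 in K83 under alkali. The companion Os.39305.1.A1_at read between 3.91 and 4.63 on the Jijing88 arrays and between 10.42 and 10.89 on the K83 arrays. Jijing88 was near background on all 6 arrays of both probe sets, and the genotypes were separated by at least 5.78. The difference for the former was 6.53 in control (92.2-fold) and 6.39 under alkali (83.8-fold). For the latter it was 6.44 and 6.03.

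LOC4326922 followed with Os.49584.1.S1_at, which read 3.19, 3.50 and 3.28 in Jijing88 control and 3.68, 3.35 and 3.98 under alkali. In K83 it read 9.29, 8.92 and 9.31 in control and 9.26, 9.25 and 9.12 under alkali. The differences were 5.85 and 5.54, again from background in every Jijing88 array. LOC4326073 (Os.15390.1.S1_at) was at 4.66 ± 0.292 (SD, n = 3) in Jijing88 control and 4.97 ± 0.319 under alkali, against 10.11 ± 0.144 and 10.35 ± 0.0543 in K83. Its Jijing88 arrays lay on either side of 5, and its differences were 5.46 and 5.37.

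LOC4336657 (Os.52261.1.S1_at) stood apart from these because it was well above background in Jijing88 too. It read 8.08, 8.13 and 8.46 in Jijing88 control and 7.26, 6.03 and 6.44 under alkali. In K83 it read 12.05, 12.75 and 12.73 in control and 11.61, 11.79 and 11.72 under alkali, among the highest signals of all members. The groups did not overlap between genotypes, and within each genotype every alkali array lay below every control array. The differences were 4.28 and 5.13.

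Of the members with a gene, the next by size without a split in Jijing88 were LOC4325215, LOC4348764 and LOC4333152. LOC4325215 (Os.38086.1.S1_at) differed by 3.51 and 3.58, LOC4348764 (Os.46565.1.S1_at) by 3.26 and 3.53, and LOC4333152 (Os.23204.1.S1_at) by 4.03 and 3.19, in control and under alkali. The first of these lay between 3.76 and 4.4 on the Jijing88 arrays and between 7.40 and 8.09 on the K83 arrays. LOC4350129 (Os.4887.1.S1_at) differed by 2.94 and 3.14, LOC4350829 (Os.49393.1.S1_at) by 2.86 and 2.88, and LOC4350717 (Os.54257.1.S1_at) by 3.02 and 2.86. LOC4340430 (Os.3386.1.S1_x_at) differed by 3.09 and 2.90, with wider spread in K83 under alkali, where its arrays read 8.99, 7.70 and 8.55. These genes carry locus numbers only, and no function is given for them here.

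LOC4331350 was measured by 2 members, Os.7327.4.S1_at with differences of 3.79 and 3.10 and Os.7327.2.S1_x_at with 3.81 and 2.90. Os.7327.1.S2_a_at and Os.7327.1.S1_a_at share the number Os.7327, which marks a common transcript cluster on the array, and were members as well. The 83 members come from 76 such numbers, so they are not 83 separate genes. LOC4337952 was also measured by 2 members, Os.54346.2.S1_at with 2.92 and 3.27 and Os.54346.1.S1_x_at with 2.39 and 2.61.

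Among the 47 members with no gene in the annotation, the 6 with the largest smaller difference were the following. Os.40418.1.S1_at differed by 5.40 in control and 7.40 under alkali. Os.40404.1.S1_s_at differed by 5.35 and 5.40, and Os.40398.1.S1_s_at by 4.96 and 6.02. For both of these last, K83 lay between 8.84 and 10.68 and Jijing88 between 3.61 and 5.63. Os.23089.1.S1_at differed by 5.70 and 4.77, OsAffx.13902.1.S1_at by 4.68 and 5.14, and Os.56066.1.S1_at by 4.61 and 4.33. Only 7 members, 8.43%, have identifiers that start with OsAffx, which make up 44.5% of the array.

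The annotation gave 1 gene to 36 members, 43.4%, against 39.2% of all probe sets. These 36 belong to 33 genes, of which 29 have a locus number only. Names went with 4 genes: METK3, FTSH9, CYP71Z6 and OsC3H18.

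METK3 (LOC4325163, Os.16099.1.S1_at) encodes an S-adenosylmethionine synthetase, an enzyme family whose product, S-adenosylmethionine, is used in ethylene, polyamine and lignin synthesis. It read 5.66, 6.20 and 5.98 in Jijing88 control, 5.61, 5.52 and 5.66 in Jijing88 under alkali, 8.09, 8.09 and 8.30 in K83 control and 7.69, 7.65 and 7.75 in K83 under alkali. It was measured above background in both genotypes, K83 being higher by 2.22 and 2.1, and every K83 alkali array lay below every K83 control array.

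FTSH9 (LOC4326617, Os.51057.1.S1_at) encodes a member of the FtsH family, membrane-bound proteases of plastids and mitochondria that remove damaged proteins. It read 6.97, 7.11 and 7.23 in Jijing88 control and 7.38, 7.17 and 7.13 under alkali, against 9.82, 9.71 and 9.72 and then 9.86, 9.81 and 9.92 in K83. This was one of the steadiest differences, at 2.65 in control and 2.63 under alkali.

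CYP71Z6 (LOC4329725, Os.23517.1.A1_at) encodes a cytochrome P450 that oxidises diterpenes and lies in the diterpenoid gene cluster of rice chromosome 2, which makes antimicrobial phytoalexins. It read between 3.62 and 4.54 on the Jijing88 arrays, all near background, and between 5.85 and 6.62 on the K83 arrays. K83 was higher by 2.31 in control and 2.22 under alkali. OsC3H18 (LOC4330984, Os.15421.1.S1_at) encodes a CCCH zinc finger protein, of a family that includes RNA-binding proteins. It read 4.39, 4.59 and 4.25 in Jijing88 control, 5.11, 5.22 and 4.67 in Jijing88 under alkali, 7.35, 7.28 and 7.44 in K83 control and 6.97, 7.0 and 7.17 in K83 under alkali. The difference was 2.95 in control and 2.05 under alkali.

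Difference sizes in the 2 media were close for most members. The control difference had a median of 3.09 and a range of 2.02 to 6.53, and the alkali difference a median of 2.90 and a range of 2.01 to 7.40. They lay within 0.5 of each other in 53 members. In 55 members the control difference was the larger, and in 28 the alkali difference. They were more than 1 apart in 10 members, smaller under alkali in 6 and larger in 4. Of those 10, 8 were members whose Jijing88 arrays fell into 2 separate levels. Os.40398.1.S1_s_at and Os.27159.1.S1_at were the other 2.

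**Figure D2:**
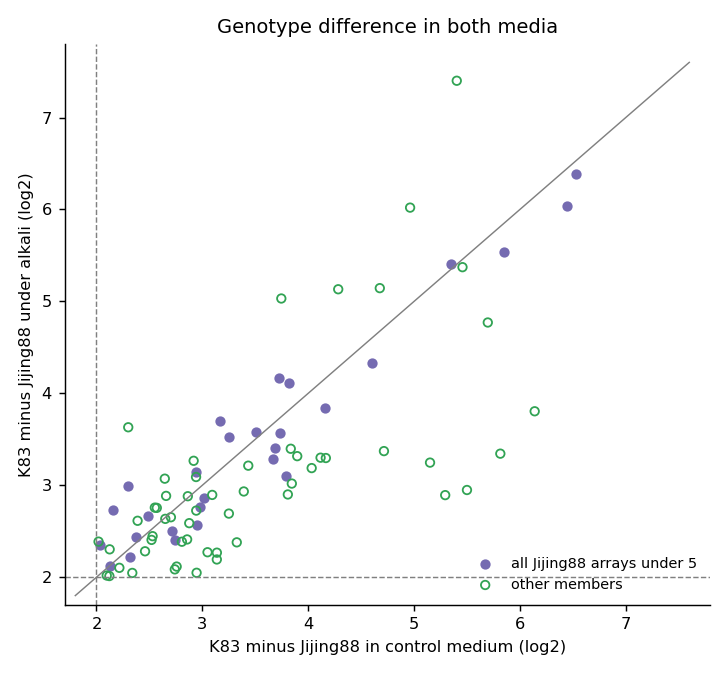
K83 minus Jijing88 in control medium (horizontal axis, log2) against the same difference under alkali (vertical axis, log2), 1 point per member; filled points had all Jijing88 arrays under 5, dashed lines mark the threshold of 2 and the solid line marks equal differences. Most points lie near the solid line, and the 6 members more than 1 below it had a control difference of 4.72 to 6.14.

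A search for split Jijing88 values, added after the data had been seen, ordered the 6 Jijing88 arrays of each probe set and asked whether neighbouring values were at least 2 apart. This was so for 9 members, 10.8%, and for 113 probe sets of the whole array, 0.197%. No member had such a gap among its K83 arrays, where the largest gap was 0.88. Over the whole array 0.119% of probe sets had one in K83. The members were selected for low Jijing88 values, so these shares are a description.

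In 5 of the 9 members the same arrays were high: Jijing88 control replicate 2 and all 3 Jijing88 alkali arrays, with control replicates 1 and 3 low. OsAffx.4161.1.S1_at (LOC4337027) read 5.26, 8.68 and 5.26 in Jijing88 control, 8.94, 9.19 and 9.30 under alkali, and 11.85 to 12.12 in K83. Os.27304.1.A1_at (LOC4337003) read 4.34, 7.95 and 4.57, then 7.54, 8.46 and 8.11, and 11.30 to 11.50 in K83. In both, control replicate 2 lay within or next to the range of the alkali arrays and about as far below K83 as they did.

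Os.7187.1.S1_at (LOC9269151) read 4.29, 8.09 and 4.05 in Jijing88 control, 7.36, 7.86 and 8.07 under alkali and 11.48 to 11.73 in K83. Os.7732.1.S1_at (LOC4349197) read 4.10, 6.52 and 4.01, then 7.29, 7.70 and 7.63, with K83 at 10.09 to 10.53. Os.7327.1.S2_a_at, with no gene, read 3.43, 5.76 and 3.68, then 6.02, 6.53 and 6.06, with K83 at 9.27 to 9.57. In the last pair control replicate 2 was below the 3 alkali arrays.

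Another 2 members were low on control replicate 1 alone. Os.7244.1.S1_at (LOC4340976) read 4.65, 7.58 and 7.66 in Jijing88 control and 7.90, 8.13 and 8.19 under alkali. Os.22372.1.S1_at (LOC4341223) read 7.08, 10.23 and 10.79, then 10.10, 10.48 and 10.25. The remaining 2 had a single high array among values near background: Os.40418.1.S1_at read 7.87 on control replicate 3 and 3.37 to 3.64 on the other arrays, and OsAffx.20305.1.S1_at read 7.01 on control replicate 2 and 3.32 to 3.98 elsewhere.

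**Figure D3:**
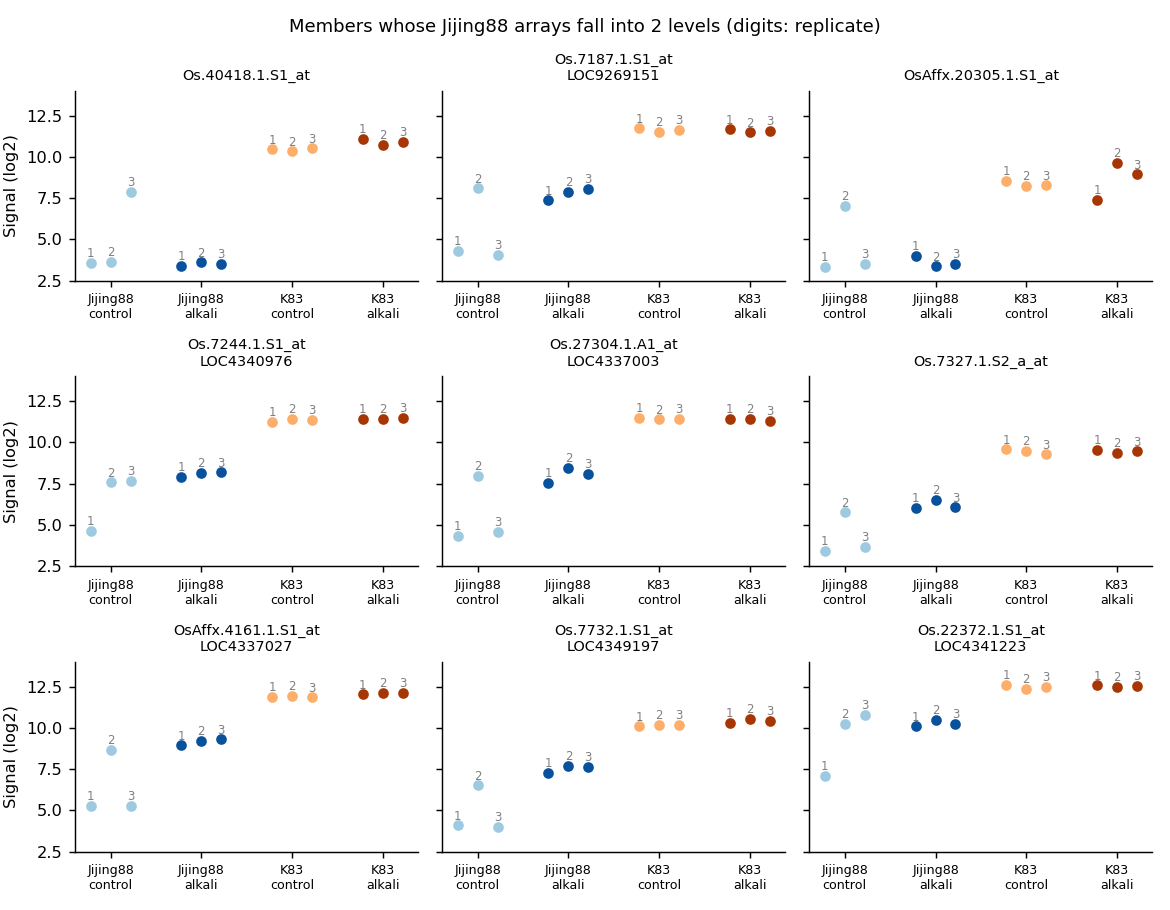
Signal (log2) of the 9 members with 2 Jijing88 levels on each array, by group along the horizontal axis; digits are replicate numbers. The Jijing88 arrays divide, with control replicate 2 beside the alkali arrays in 5 panels. The K83 arrays have no such gap, though for OsAffx.20305.1.S1_at they spread from 7.37 to 9.64.

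The rule keeps every Jijing88 array below K83. The upper Jijing88 level lay below the K83 mean by 1.49 to 3.75, which puts it at 7.44% to 35.6% of the K83 signal on the linear scale. Over the whole array, 12 probe sets had control replicate 2 and the alkali arrays high with control replicates 1 and 3 low, and 0 had the opposite order. Besides the 5 members these were 7 probe sets that the rule did not take. In 2 of the 7, both of LOC4331035, all K83 arrays lay above all Jijing88 arrays. In the other 5, K83 lay at the low level: Os.47732.1.S1_at read 3.63, 9.02 and 3.82 in Jijing88 control, 10.22, 10.06 and 10.20 under alkali, and 3.26 to 3.84 in K83. With Jijing88 control replicates 1 and 3 left out together, an alternative added after seeing the data, the rule takes 75 probe sets, 74 of them among the 83. Each array pools 10 shoots; what set the levels apart was not tested.

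For 12 member genes the array holds further probe sets that are not members, 15 in all. In 9 of the 12 genes every such probe set differed by less than 1 between genotypes in both media. LOC4350802, with 2 members above 6, has Os.11161.1.S1_at, which differed by -0.52 and -0.86 but averaged 4.39 in Jijing88 and 3.70 in K83, near background in both, and so cannot show whether the genotypes differed. LOC4326922 has Os.11717.1.S1_a_at at -0.17 and -0.30 and Os.11717.1.S1_at at -0.09 and -0.22. LOC4326073, with a member at 5.46, has Os.15390.1.S1_s_at at -0.09 and 0.16. The other probe sets of LOC4326922 and LOC4326073 were well above background in both genotypes, with means from 9.01 to 10.55, so within these 2 genes a member differed and the others differed by 0.30 or less.

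Similar values were found for LOC4337027, whose Os.5631.1.S1_s_at differed by -0.53 and -0.43, and for OsC3H18, whose Os.15421.1.S1_x_at differed by -0.17 and -0.29 and Os.15421.2.S1_at by -0.49 and -0.21. For FTSH9, Os.51057.1.S1_s_at differed by 0.56 and 0.41, and there all K83 arrays were above all Jijing88 arrays. LOC4348764, LOC4350129 and LOC9269581 were the other 3 of the 9 genes. Os.46565.2.S1_x_at of LOC4348764 differed by 0.53 and 0.77, again with all K83 arrays above all Jijing88 arrays. Os.54539.1.S1_at of LOC4350129 averaged 4.03 and 4.33, near background in both genotypes. LOC4337952 went the opposite way: Os.51703.1.S1_at was lower in K83 by 1.37 in control and 1.85 under alkali, or -1.37 and -1.85. LOC4350826 has Os.25222.1.S2_at at -0.37 and -1.05.

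Further probe sets shared a member's direction at LOC4337807, where Os.27236.2.A1_at differed by 1.65 and 1.28 and Os.38320.2.S1_at by 1.32 and 1.01, against 2.86 and 2.41 for the member Os.27236.2.A1_s_at. LOC4331350 has no probe set outside the members. Os.38086.2.S1_x_at shares the cluster number of the LOC4325215 member, though the annotation gives it no gene, and it differed by 1.95 and 1.89 with all K83 arrays above all Jijing88 arrays. By annotated gene, the other 21 member genes have no non-member probe set. Counted also by cluster number, 25 members have a further probe set of some kind and 58 have none, and of the 19 non-member probe sets 14 differed by less than 1 in both media, 3 were higher in K83 by at least 1 in both, 1 was lower and 1 was lower under alkali only.

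**Figure D4:**
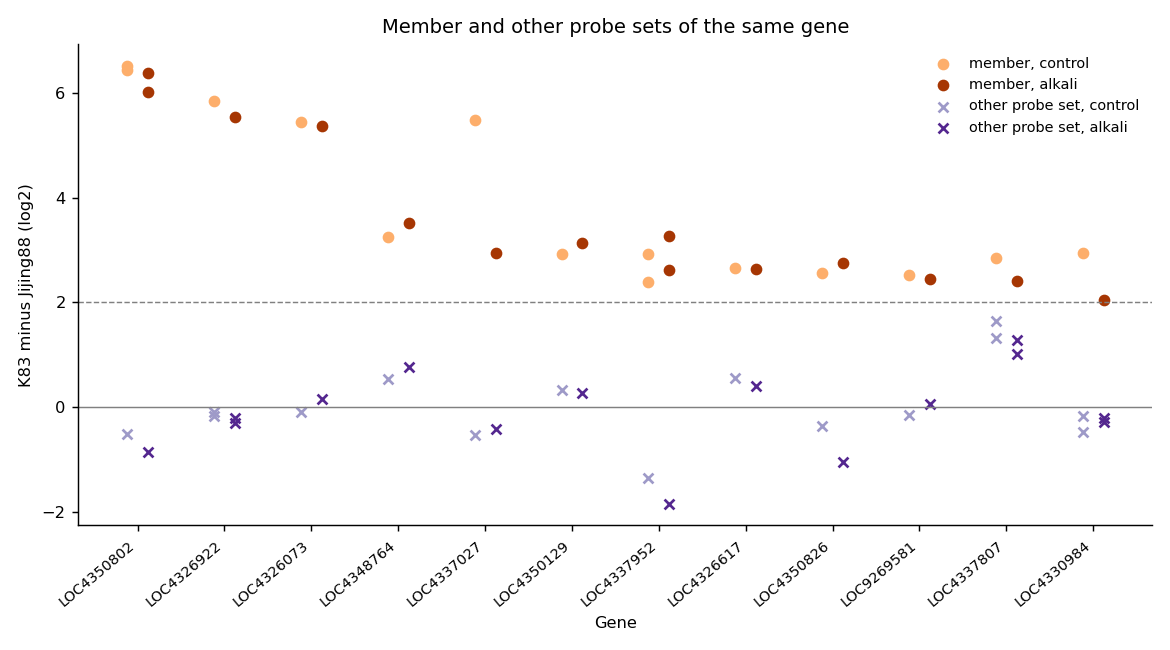
K83 minus Jijing88 (log2, vertical axis) in control and under alkali for member probe sets (circles) and other probe sets (crosses) of the 12 genes that have both. Crosses lie near 0 in most genes while the circles lie above the dashed line at 2; only LOC4337807 has all crosses at 1 or above.

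Positions come from the RefSeq gene table of the japonica assembly ASM3414082v1, which need not be the sequence the array was designed on. Chromosome 1 holds 8 of the 33 member genes, 24.2%, against 14.8% of all genes measured. Chromosome 11 holds 6, or 18.2% against 4.72%. Chromosomes 2 and 6 hold 4 each, chromosomes 3, 4 and 5 hold 3 each and chromosome 10 holds 2. Chromosomes 7, 8, 9 and 12, with 7.67%, 6.74%, 5.37% and 5.07% of the genes measured, hold none.

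Member genes on chromosome 11 lie in 2 stretches. LOC4350125 and LOC4350129 start at 7104999 and 7265528, 160.5 kb apart with no other measured gene between them. Of 6 non-member genes within 200 kb of either, LOC4350133 differed by 1.87 and 1.63 and LOC4350122 by 0.68 and 1.07, and the other 4 by -0.74 to 0.18. LOC4350717 (22585497 to 22588543), LOC4350802 (24152247 to 24155577), LOC4350826 (24480732 to 24484442) and LOC4350829 (24508492 to 24512190) lie towards the far end. LOC4350826 and LOC4350829 are 27.8 kb apart with 1 measured gene between, which differed by 0.55 and 0.85. Between LOC4350802 and LOC4350826, 328.5 kb apart, none of 13 measured genes was higher or lower in K83 by 1 or more in both media. Outside that interval, LOC4350791, within 200 kb of LOC4350802, was lower in K83, at -1.25 and -1.12.

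Close pairs were also found on chromosome 2, where LOC4331070 and LOC9269581 start 26.3 kb apart at 34878883 and 34905186 with no measured gene between. On chromosome 4, LOC4337003 and LOC4337027, at 31848014 and 32010631, are 162.6 kb apart. These 2 genes share the split Jijing88 pattern, and none of the 13 measured genes between them differed by 1 or more in both media. No 3 member genes lay within 200 kb of each other. LOC4350125, LOC4350826, LOC4331070 and LOC9269581 are named here for their position, after their values had been seen.

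With each gene counted once, read from its brightest probe set and member genes left out, 649 measured genes start within 200 kb of a member gene. Of these, 8 (1.23%) were higher in K83 by at least 1 in both media and 13 (2.0%) were lower, against 0.72% and 1.25% of the 17223 non-member genes elsewhere. No test was made of these shares. Of 16 measured genes that start within 200 kb of CYP71Z6, only 1, CPS2, was higher in K83 by at least 1 in both media. In that window 0 genes were lower by as much. CYP71Z6 starts at 22268605 on chromosome 2, and its neighbour CYP71Z7, a P450 of the same cluster 22.2 kb away, differed by 0.49 and 0.44. The diterpene synthase gene KSL7 differed by 0.12 and 0.61 on Os.21776.1.S1_at, and KSL5 by 0.41 and 0.57. CPS2, a diterpene cyclase gene 53.0 kb away, met both differences with 2.08 and 3.31, but its arrays overlapped between genotypes, with 6.23 on Jijing88 control replicate 2 and 5.77 on K83 alkali replicate 1.

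Of 11 lists of gene families, only the cytochrome P450 list had a member gene, CYP71Z6, among its 30 measured genes. The 121 transcription factor genes, 45 metal transport and chelation genes, 35 glycosyltransferase genes, 25 heat shock genes, 24 pathogenesis-related and chitinase genes and 24 sodium, potassium and proton transport genes had 0 members. For metal transport this is set in part by the rule, since LOC4338051 passed and was left out by name. The other genes barred by name did not meet the conditions. ZIP4 differed by 1.52 under alkali and ORC1 by 1.61 under alkali. Of the terpene list, DTS2 differed by 1.77 in control, and the arrays of CPS2 overlapped between genotypes. No members were found either in the terpene synthesis, disease resistance, receptor-like kinase and glutathione S-transferase lists, with 13, 7, 7 and 6 genes. Over the array 33 of 17905 measured genes were member genes, so a list of these sizes holds few or none at that share. The lists rest on gene symbols, which 2458 of the 17905 measured genes have, so most member genes could not be placed in any list.

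The alkali effect averaged over the genotypes was tested because, as a contrast, it is orthogonal to both genotype differences. With unequal spread between groups, this does not make it independent of the selection. At the members, the median SD was 0.35 in Jijing88 control against 0.14 in K83 control, so the selection can bear on this effect too. The condition on the order of the arrays uses all of them and bears on the spread. In limma's moderated test over all 57258 probe sets, at an adjusted p under 0.05, 7 members rose under alkali and 7 fell. That is 8.43% in each direction, against 5.55% of all probe sets called higher and 6.85% called lower. The remaining 69 members did not pass. The median effect was 0.067 over the members and -0.011 over all probe sets, with effects in both directions and sizes up to 1.47. The call held without any 1 array for 9 of the 14.

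Among those that fell, LOC4336657 changed by -1.23 with SE 0.182 (limma adjusted p = 0.000584). Its fall was -1.65 in Jijing88, and all alkali arrays were below all control arrays in both genotypes. Os.27159.1.S1_at, with no gene, fell by 1.22 (limma adjusted p = 0.00138), from 10.13, 10.34 and 8.88 to 8.05, 8.12 and 7.54 in Jijing88 and from 11.87, 12.19 and 12.19 to 11.53, 11.54 and 11.54 in K83. Every alkali array of it was below every control array of the same genotype.

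Os.40398.1.S1_s_at fell by 0.88 (limma adjusted p = 0.00256) and LOC4326375 (Os.5012.1.S1_at) by 0.80 (limma adjusted p = 0.00215). LOC4326375 went from 7.63, 8.73 and 8.10 to 7.39, 6.97 and 7.15 in Jijing88 and from 10.25, 10.18 and 10.09 to 9.55, 9.52 and 9.59 in K83, without overlap. LOC4340430 fell by 0.82 (limma adjusted p = 0.0201), a call that was lost without Jijing88 alkali replicate 3 (0.0539) or K83 control replicate 1 (0.0524). METK3 fell by 0.41 (SE 0.0847, limma adjusted p = 0.00613) and Os.39128.1.A1_at by 0.33 (limma adjusted p = 0.00899).

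Among those that rose, LOC4349197 (Os.7732.1.S1_at) changed most, by 1.46 (SE 0.331, limma adjusted p = 0.0102). It is a member with the split described above, and its rise was 2.66 in Jijing88 and 0.26 in K83. Os.39764.1.S1_at rose by 0.76 (limma adjusted p = 0.0179) and its companion Os.39764.1.S1_x_at by 0.58 (limma adjusted p = 0.0194). Os.29925.1.S1_at rose by 0.54 (limma adjusted p = 0.00755), from 4.42, 5.22 and 4.41 to 5.42, 5.47 and 5.44 in Jijing88 and from 8.50, 8.45 and 8.61 to 8.79, 8.82 and 8.92 in K83. In both genotypes its alkali arrays lay above its control arrays. LOC4350125 (Os.54085.1.S1_at) rose by 0.39 (limma adjusted p = 0.0378), a call lost without any of 8 arrays taken out in turn, at adjusted p up to 0.0962.

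**Figure D5:**
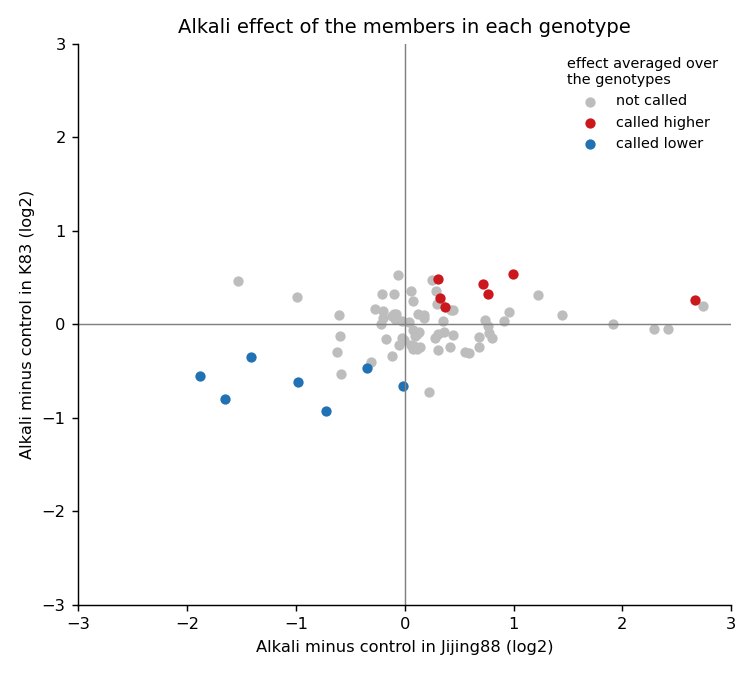
Alkali minus control (log2) in Jijing88 (horizontal axis) and K83 (vertical axis) for the 83 members, with members called for the averaged effect in colour. The K83 values stay within 0.92 of 0, while the Jijing88 values reach 2.74.

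Within each genotype, the alkali effect is not independent of the selection, which used the same group means. A low Jijing88 control mean both widens the control difference and raises the alkali effect in Jijing88. The counts are therefore a description. By the same limma test, 11 members rose in Jijing88 and 5 fell. That is 13.3% and 6.02%, against 4.29% and 4.07% of all probe sets. In K83, 0 rose and 2 fell, 0% and 2.41%, against 2.61% and 3.85%. At an unadjusted p under 0.05 in limma, 6 members rose and 9 fell in K83. The share over all probe sets was not computed at that level, so these 2 counts have no baseline. The 2 that fell there were Os.39128.1.A1_at, by 0.66 (limma adjusted p = 0.00253), and METK3, by 0.46 (limma adjusted p = 0.0364). The fit shares 1 estimate of spread over all 4 groups, so the wider Jijing88 spread at the members enters the K83 test. In a fit of the K83 arrays alone, 3 members rose and 6 fell. The share over all probe sets was not computed for that fit. The difference between the genotypes' alkali effects was used by the selection and was not tested.

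Of the 11 that rose in Jijing88, 4 were members with 2 Jijing88 levels: LOC4337027 by 2.74, LOC4349197 by 2.66, LOC4337003 by 2.42 and Os.7327.1.S2_a_at by 1.91. In all 4 most of the rise is the distance from control replicates 1 and 3, since control replicate 2 read far closer to the alkali arrays. Control replicate 2 still lay below every alkali array for LOC4337027, Os.7327.1.S2_a_at and LOC4349197. It was furthest below for LOC4349197, at 6.52 against 7.29 to 7.70. Without these 4 members, 7 rose. Leaving out Jijing88 control replicate 1, 3 members rose, and leaving out control replicate 2, 21 did; without control replicate 3 the number was 7. Taking out Jijing88 alkali replicates 1, 2 or 3 gave 7, 5 or 4, and taking out K83 control replicate 2 or K83 alkali replicate 3 gave 7 each. For the averaged effect, 18 members were higher when Jijing88 control replicate 2 was left out, 3 when K83 alkali replicate 2 was, and 4 when either K83 control replicate 1 or K83 alkali replicate 3 was. In K83 the 2 members lower became 4 on leaving out Jijing88 control replicate 1 and 1 on leaving out any of K83 control replicates 2 and 3 and K83 alkali replicates 2 and 3. The 0 higher became 2 on leaving out Jijing88 control replicate 2, and 1 for each of Jijing88 control replicates 1 and 3 and Jijing88 alkali replicate 1. The number of members higher in Jijing88 thus moved with single arrays of either medium, and 5 of the 16 calls in Jijing88 held without any 1 array.

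At the threshold itself, the 3 members just inside had smaller differences of 2.01 (OsAffx.14556.1.S1_at), 2.02 (Os.9454.1.S1_at) and 2.02 (Os.5012.1.S1_at, LOC4326375). The 3 probe sets just outside had 1.99 (OsAffx.19886.1.S1_at), 1.98 (OsAffx.15787.3.S1_at) and 1.98 (Os.51528.1.S1_at, LOC9272124). The same rule turned around, with K83 lower than Jijing88, takes 139 probe sets, so the K83-high members are the smaller side of the constitutive genotype difference.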

How the data were processed

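The values are the authors' deposited log2 signals, 1 per probe set and array, made with RMA (background correction, quantile normalization and summary over probes) per the submitters' processing notes, which also name limma. No versions and no log base are given; the base was read from the range of the values. Control probe sets (123 of 57381 rows) were left out. Members and gene lists were chosen with earlier results of these data known. Tests used limma 3.58.1 in R 4.3.3: 1 fit of 4 group means with 8 residual degrees of freedom, empirical Bayes moderation, and Benjamini-Hochberg adjustment over 57258 probe sets. The fit was tested on simulated data with independent noise of equal spread in all groups. That test does not cover the unequal spread between groups seen at the members. Genes named are the 20 annotated members and 6 unannotated members with the largest smaller difference, all with a symbol, the 5 largest called alkali changes each way, and those at the threshold. Gene names and positions come from the platform annotation and the RefSeq table. Alternatives were other thresholds, other limma settings and leaving out arrays. The number of arrays limits the precision.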

Additional observations from a re-analysis of the deposited data

Results flagged for a closer look

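In 3 members, 3.61%, every alkali array lay on one side of every control array in Jijing88 and on the other side in K83, against 1.72% of all probe sets. The difference was not tested, because the selection used it. The alkali effect in K83 minus that in Jijing88 was 0.35 for Os.54346.2.S1_at (LOC4337952), which went from 8.49 to 8.68 in Jijing88 control to 8.29 to 8.40 under alkali while K83 went from 11.46 to 11.50 up to 11.61 to 11.64. It was -0.65 for Os.51242.1.S1_at and -0.90 for Os.15421.1.S1_at (OsC3H18), both higher under alkali in Jijing88 and lower in K83.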

How the results depend on the processing

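With the required difference set to 1.5 the group held 129 probe sets, and with 2.5 it held 55. The averaged alkali effect called 7 members higher; the count was 11 with the replicate block, 12 with dim probe sets left out, and 3 to 18 when 1 array was left out. In Jijing88 the 11 members higher became 5 with trend and robust moderation, 3 with array weights, 1 in a single-genotype fit, 7 with the members of 2 Jijing88 levels not counted (added after seeing the data), and 3 to 21 when 1 array was left out; the 5 lower became 3 in the single-genotype fit. In K83 the 0 higher became 1 with the replicate block, 3 in the single-genotype fit and 0 to 2 when 1 array was left out, and the 2 lower became 6 in the single-genotype fit and 1 to 4 when 1 array was left out. Of 18 same-numbered pairs of arrays, 7 had a correlation of deviations above 0.1, with a range of -0.0765 to 0.216. Most of the 7 were pairs of replicate 1. No pairs of unlike number are set beside them, so these values cannot decide whether the replicate numbers pair the samples. For the 32 calls of single members, 437 of 562 alternatives kept direction and call, 125 kept the direction and lost the call, and 0 reversed. Signal near background limits the size of the difference for the 28 members under 5 in Jijing88.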
